A study of Mus musculus with 1307 samples.

Results

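The 6 actin genes Acta2, Actg2, Actc1, Acta1, Actb and Actg1 were followed through single cells of the adult mouse heart. They were chosen by name, as 6 of the 46517 gene rows of the count table, and all 6 had counts. Together they held 2275210 of 369984434 counts, or 0.615%. Of these actin counts, Actb took 50.2%, Acta2 24.5%, Actg1 20.5%, Actg2 2.58%, Actc1 2.01% and Acta1 0.294%. The genes were described in all 1307 cells, by cell class, and by the level of Rgs5 in the 259 cells with Myh11 at 1000 CPM (counts per 1000000 counts of the cell) or more. Myh11 encodes smooth muscle myosin heavy chain, and Rgs5 encodes a regulator of G protein signalling found in pericytes and in some smooth muscle cells.

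Actins are near-identical proteins that polymerise into filaments, and mammals encode them in separate genes with different tissue patterns. Acta2 (smooth muscle alpha-actin) is the usual actin of vascular smooth muscle, and Actg2 (smooth muscle gamma-actin) is best known from gut and bladder muscle. Actc1 and Acta1 encode the cardiac and the skeletal alpha-actin of striated muscle, whereas Actb and Actg1 encode the cytoplasmic actins of nearly every cell. Transcription of muscle actin genes depends on serum response factor (SRF), which binds the CArG box, and on its cofactors of the myocardin family.

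Hearts of adult mice, 8 to 30 weeks old, were dissociated enzymatically, cells were sorted into 384-well plates, and each cell was sequenced with Smart-Seq2, which reads full-length cDNA without molecular identifiers. Reporter mice labelled ACTA2GFP:CSPG4dsRED (named for Acta2 and for Cspg4, a proteoglycan gene of mural cells) gave 368, 245 and 336 cells, called double reporter mice 1, 2 and 3. C57BL/6 mouse 1, without a reporter in its label, gave 347 cells. The other 11 cells came from 2 further C57BL/6 mice, 1 CSPG4dsRED mouse and 1 ACTA2GFP mouse, and entered no test. Double reporter mouse 3 carries a female label, against a design description of male animals, and each large mouse was on a plate of its own, so mouse and plate cannot be told apart. The sources used here do not give the sort gate. Whether the Acta2 reporter chose cells by their Acta2 level was not tested, and this touches each Acta2 value of the double reporter mice. Cells held 50476 to 811982 counts (median 274700), with medians of 341000, 220900 and 208900 in double reporter mice 1 to 3 and 308000 in C57BL/6 mouse 1. Cells were classed by clustering without the actin genes and without the markers that named the classes, and each mouse counted as 1 replicate. Smooth muscle-like cells made up cluster 2 (73, 57 and 19 cells in double reporter mice 1 to 3) and cluster 6 (53, 33 and 9 cells), and fibroblast-like cells numbered 71, 99 and 229. Pericyte-like cells numbered 51, 13 and 9, and the 9 were too few to enter the tests. Cluster 4, with 78, 21 and 5 cells, raised 4 of 8 smooth muscle and 4 of 7 pericyte markers and stayed unnamed. Endothelial-like cells came mainly from C57BL/6 mouse 1 (243 cells).

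Reads of these genes can be told apart to different degrees. The coding sequences were 81.5% (Acta2 with Actg1) to 88.6% (Actb with Actg1) identical base for base. Acta2 (ENSMUSG00000035783) lies at chr19:34241090-34255590 of GRCm38 and its transcript has 2035 bases in 9 exons. Actg2 (ENSMUSG00000059430) lies at chr6:83512905-83536265 with 1333 bases in 9 exons, and Actc1 (ENSMUSG00000068614) at chr2:114047282-114053548 with 1473 bases in 7 exons. Acta1 (ENSMUSG00000031972) lies at chr8:123891769-123894751 with 1446 bases in 7 exons. Actb (ENSMUSG00000029580) lies at chr5:142903115-142906754 with 1920 bases in 6 exons, and Actg1 (ENSMUSG00000062825) at chr11:120345690-120348542 with 1952 bases in 6 exons. All 6 are on the minus strand. The start of each coding sequence is shown here because muscle and cytoplasmic actins differ in its first letters. Acta2, Actg2, Actc1 and Acta1 begin with atgtg, and Actb and Actg1 with atgga. Shown are the first 60 coding bases, in the direction of transcription, and capitals mark bases unlike Acta2 in a pairwise alignment.
Acta2: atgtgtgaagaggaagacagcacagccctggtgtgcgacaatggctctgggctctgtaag
Actg2: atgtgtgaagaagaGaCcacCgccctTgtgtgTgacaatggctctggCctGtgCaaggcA
Actc1: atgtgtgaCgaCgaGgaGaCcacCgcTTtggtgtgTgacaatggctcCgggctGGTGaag
Acta1: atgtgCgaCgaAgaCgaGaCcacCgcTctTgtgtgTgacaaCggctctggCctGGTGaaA
Actb: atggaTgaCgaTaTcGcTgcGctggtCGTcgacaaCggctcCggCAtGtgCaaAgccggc
Actg1: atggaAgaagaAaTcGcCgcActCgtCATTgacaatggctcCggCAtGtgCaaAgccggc
Actg2 had 9 unlike bases, Actc1 14, and Acta1, Actb and Actg1 17 each, besides bases without a partner in the alignment. The number of unlike bases does not set the muscle gene Acta1 apart from the cytoplasmic genes. Of all 50-base windows of the transcript, 97.8% or more were unique among annotated transcripts for Acta2, Actg2, Actc1 and Acta1, against 85.8% for Actb and 43.3% for Actg1. Actg1 shared 973 of 1903 such windows with the gene model Gm12715, and its exons overlap the gene model Gm23419, so its counts are the least certain of the family. The sources used here do not state how reads with several matches were counted.

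Promoter sequences from RefSeq (GRCm38.p6) matched 4 of the 6 genes, and they are shown because Acta2, one of the 4, rose in smooth muscle-like cells while the other 3 did not pass the test there. Each is the 120 bases before the transcript start that the RefSeq table uses, on the minus strand. For Acta2, Actc1 and Actg1 this start lies inside the gene bounds given above, which are those of the GENCODE annotation and reach further upstream. In each sequence, capitals mark CArG boxes of the strict form or of a looser form in which 1 inner base is not A or T.
Acta2, chr19:34255374-34255493: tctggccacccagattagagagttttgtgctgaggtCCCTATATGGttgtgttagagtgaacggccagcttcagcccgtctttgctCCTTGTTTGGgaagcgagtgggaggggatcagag
Actc1, chr2:114052876-114052995: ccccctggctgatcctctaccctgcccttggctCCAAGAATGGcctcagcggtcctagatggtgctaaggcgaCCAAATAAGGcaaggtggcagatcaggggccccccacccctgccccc
Acta1, chr8:123894776-123894895: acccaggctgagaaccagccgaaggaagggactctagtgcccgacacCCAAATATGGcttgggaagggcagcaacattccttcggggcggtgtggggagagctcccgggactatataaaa
Actg1, chr11:120348496-120348615: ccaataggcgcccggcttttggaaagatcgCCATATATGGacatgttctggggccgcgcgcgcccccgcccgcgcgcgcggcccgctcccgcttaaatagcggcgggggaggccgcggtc
Searched on both strands over 250 bases before to 50 bases after the start, Actc1 held 4 boxes of either form, Acta1 3, Acta2 2 and Actg1 1. Actc1, Acta1 and Actg1 held 1 strict box each, and Acta2 held none. A strict box was found in 535 of 32851 promoters of this length (1.63%), at least 1 box of either form in 9.98%, and 2 or more in 0.822%. A match describes these letters and is not evidence of binding.

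By summed counts, Acta2 was the most abundant actin of smooth muscle-like cells. It was several times lower in pericyte-like and fibroblast-like cells. In counts summed over the cells of a class, it reached 5117, 6825 and 5488 CPM in the smooth muscle-like cells of double reporter mice 1, 2 and 3. Pericyte-like cells gave 741 and 880 CPM in mice 1 and 2, and 1048 CPM in the 9 cells of mouse 3. Fibroblast-like cells gave 793, 359 and 227 CPM. The smooth muscle-like values lay above every value of the other 2 classes, and the share of all genes that separate in this way is not given here. The rise over pericyte-like cells was 2.92 ± 0.22 on the log2 scale (SE, 2 mice, edgeR adjusted p = 8.36e-05), and over fibroblast-like cells 3.90 ± 0.45 (3 mice, edgeR adjusted p = 0.0186). Without double reporter mouse 2 the latter was 3.69 and lost its call (edgeR adjusted p = 0.103). The difference lay in the level per cell more than in the number of cells with the transcript: Acta2 reached 50 CPM in every smooth muscle-like cell of mice 1 and 2 and in 26 of 28 of mouse 3, and also in 46 of 51 and 13 of 13 pericyte-like cells, at a median of 195 and 260 CPM over all cells of the class.

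Smooth muscle-like cells differed more from pericyte-like and fibroblast-like cells in Actg2 than in Acta2. With the finer clusters described below this order did not hold against pericyte-like cells. Unlike Acta2, Actg2 was present in some smooth muscle-like cells and near 0 in others. Smooth muscle-like sums held 577.5, 610 and 156 CPM in double reporter mice 1 to 3. Pericyte-like sums held 10 and 2.59 CPM, and fibroblast-like sums 4.48, 3.26 and 0.427 CPM. The smooth muscle-like values lay above all of these, and the share of all genes that separate in this way is not given here. The rise was 6.69 ± 0.61 over pericyte-like cells (edgeR adjusted p = 0.000258, 2 mice) and 7.67 ± 0.43 over fibroblast-like cells (edgeR adjusted p = 0.00638, 3 mice). Cells with Actg2 at 50 CPM or more made up 43.7%, 42.2% and 21.4% of smooth muscle-like cells, while the medians over all these cells were 10.4, 14.96 and 0 CPM. Of the 71, 99 and 229 fibroblast-like cells 0 reached 50 CPM, which allows shares of up to 5.06%, 3.66% and 1.60% (exact binomial 95% limits). In cluster 2 the positive cells had medians of 991, 1561 and 535 CPM, well above the threshold. Thinning each cell to 50000 counts left these shares at 43.7%, 42.2% and 21.4%.

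**Figure D1:**
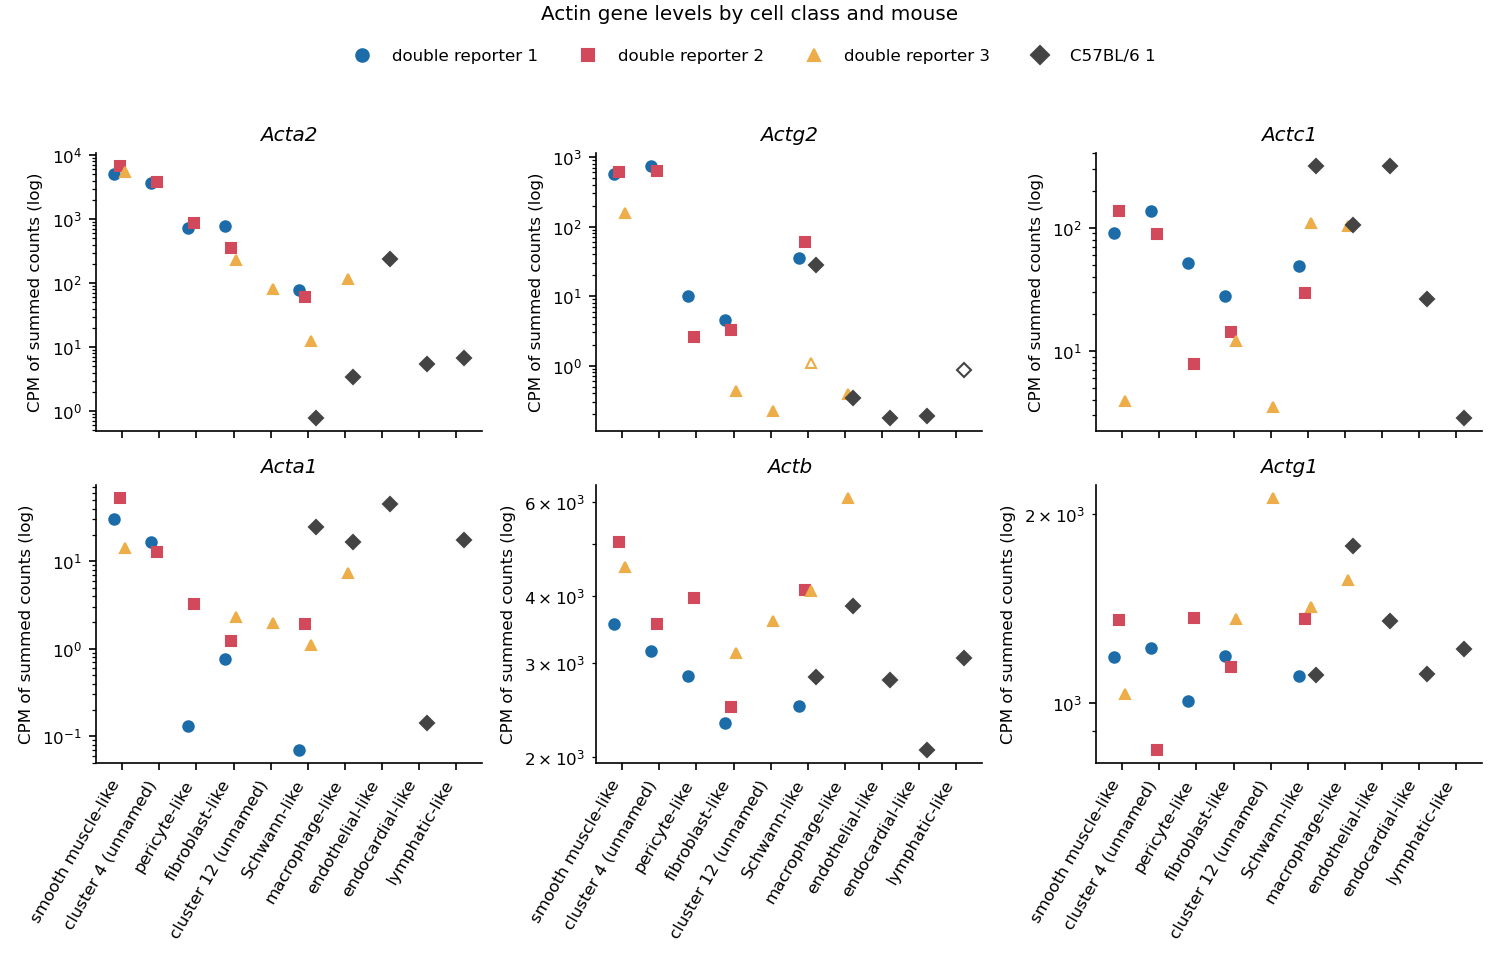
Level of each actin gene (CPM of counts summed over the cells of a class, log axis) by cell class; each symbol is 1 mouse with at least 10 cells of the class, and hollow symbols mark a count of 0 drawn at the limit of 3 counts. Acta2 and Actg2 are high in smooth muscle-like cells and in cluster 4, whereas Actb and Actg1 stay within a narrow range across classes.

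Of the 6 actin genes, 2 were called higher in smooth muscle-like than in pericyte-like cells, where 2.43% of the 14824 genes tested were called in either direction. The median change of all genes in that fit was 0.54 on the log2 scale, and Actb (0.39 ± 0.20, edgeR adjusted p = 0.438) and Actg1 (0.16 ± 0.25, edgeR adjusted p = 0.903) lay below it. Against fibroblast-like cells the same 2 genes were called, with 4.72% of 16007 genes called and a median change of -0.10. Finer clusters (resolution 2 in place of 1) changed both sides of these comparisons: 82 of the 151 cells of cluster 2 became unnamed, 35 of the 96 cells of cluster 6 became fibroblast-like, and cluster 4 went mostly to the pericyte-like (67 cells) and fibroblast-like (38 cells) classes. The smooth muscle-like sums then held 76, 39 and 17 cells of double reporter mice 1 to 3, and neither gene was called in either comparison: Acta2 changed by 1.47 and 3.33 (edgeR adjusted p = 0.158 and 0.0961) and Actg2 by 1.45 and 4.15 (edgeR adjusted p = 0.835 and 0.0670). The classes were not free of each other's markers: in smooth muscle-like cells of double reporter mice 1 to 3 the 10 fibroblast markers summed to 3202, 6459 and 7892 CPM and the 7 pericyte markers to 860, 1136 and 1888 CPM. Median depth per cell was 311200, 203300 and 155800 counts in smooth muscle-like cells, 323200 and 99230 in pericyte-like and 435500, 256900 and 240900 in fibroblast-like cells, and the part of markers and depth was not tested. The median over the 6 actin genes was 2.69 and 2.61 in these fits. Between pericyte-like and fibroblast-like cells, 0 of the 6 were called by edgeR, 0 had an unadjusted p under 0.05 and 0 were called by DESeq2. Of 15314 genes, edgeR called 5.14% and 2697 had an unadjusted p under 0.05. The DESeq2 share is given in the last section. With 6 genes, counts of 0 are not read as a difference from other genes. Acta2 differed there by 0.48 ± 0.40 (edgeR adjusted p = 0.663), against a median change of -0.62 over all genes.

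Cluster 4 carried Acta2 and Actg2 together. Acta2 stood at 3732 and 3882 CPM in double reporter mice 1 and 2, between the pericyte-like and the smooth muscle-like values of the same mice. Actg2 stood at 747 and 620 CPM and reached 50 CPM in 61.5% and 52.4% of its cells. In the 5 cells of mouse 3 the values were 2448 CPM for Acta2 and 150 CPM for Actg2. The pericyte-like cluster 8, which shares the leading genes Vtn and Colec11 with cluster 4, had 2 of 51 cells at 50 CPM of Actg2 in mouse 1 and 0 of 13 in mouse 2. Cluster 4 entered no test.

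**Figure D2:**
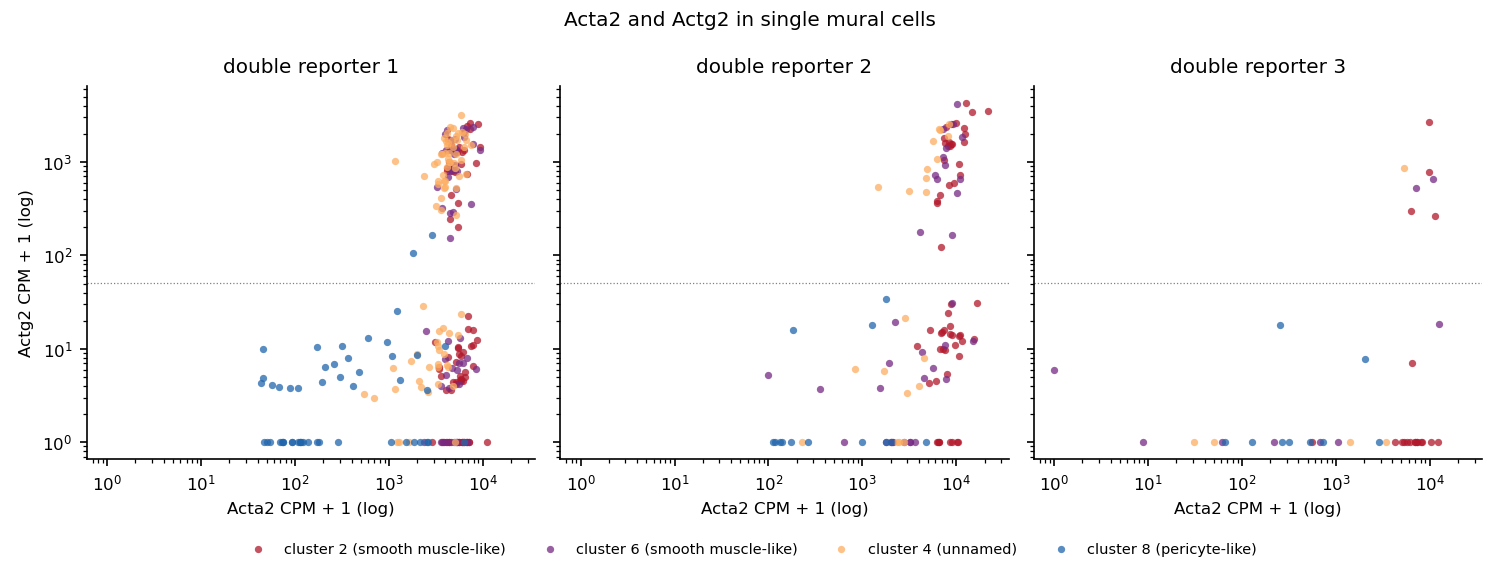
Actg2 against Acta2 (CPM + 1, log axes) in single cells of the smooth muscle-like clusters 2 and 6, the unnamed cluster 4 and the pericyte-like cluster 8, 1 panel per double reporter mouse; the dotted line is 50 CPM of Actg2. Cells of clusters 2, 4 and 6 with a like Acta2 level fall into a group near 1000 CPM of Actg2 and a group near 0, and pericyte-like cells lie low on both axes.

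Fibroblast-like cells held Acta2 too, at levels that differed between clusters and mice. In cluster 1, whose leading genes were Cilp, Chad and Wif1, Acta2 summed to 803, 466 and 614 CPM in double reporter mice 1, 2 and 3. In clusters 3 and 5 it summed to 174 and 188 CPM in mouse 2, and to 161 and 193 CPM in mouse 3. Cluster 1 made up 68 of 71 fibroblast-like cells of mouse 1 but 28 of 229 of mouse 3. The smooth muscle markers in these cells summed to 692, 430 and 387 CPM, against 8678 to 13230 CPM in smooth muscle-like cells, with none of the 8 at 0. Their part in the Acta2 of fibroblast-like cells was not tested.

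Outside the mural and fibroblast-like cells, summed Acta2 levels differed between mice. Schwann-like cells held 78.4, 61.0 and 12.4 CPM in double reporter mice 1 to 3, but 0.771 CPM (95% counting interval 0.210 to 1.98) in the 12 cells of C57BL/6 mouse 1. These 12 cells also held 4656 CPM of the 8 endothelial markers, all 8 at 100 CPM or more, against 5.30 to 30.5 CPM in Schwann-like cells of the double reporter mice, so the cells compared differ in content. Macrophage-like cells held 115 CPM in double reporter mouse 3 and 3.39 CPM in C57BL/6 mouse 1. The sum of double reporter mouse 3 rested on few cells, with a median of 6.15 CPM and 9.68% of cells at 50 CPM or more. Endocardial-like and lymphatic-like cells of C57BL/6 mouse 1 held 5.41 and 6.81 CPM. Strain, reporter, mouse and plate cannot be told apart in these differences. Endothelial-like cells of that mouse were split: cluster 0 held 27.6 CPM, and cluster 10, led by the arterial endothelial genes Sox17, Gja5 and Alpl, held 857 CPM. In cluster 10, 21 of 58 cells reached 50 CPM of Acta2, with a median of 2089 CPM among these, and 0 reached 50 CPM of Actg2. Over the 243 endothelial-like cells the smooth muscle markers summed to 845 CPM with 3 of 8 at 100 CPM or more, and Acta2 and Myh11 correlated (Spearman 0.43 over cells of 1 plate). The part of mural RNA in this Acta2 was not tested.

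Actc1 had counts in every class and passed no test between classes. Smooth muscle-like sums held 90.4, 136 and 3.90 CPM in double reporter mice 1 to 3, pericyte-like sums 51.5 and 7.76 CPM, and fibroblast-like sums 28.0, 14.4 and 11.95 CPM. The mice differed more than the classes, and mouse 3 was the lowest in smooth muscle-like cells. The changes were 2.45 ± 1.08 against pericyte-like cells (edgeR adjusted p = 0.334) and 1.32 ± 1.03 against fibroblast-like cells (edgeR adjusted p = 0.570). Endothelial-like and Schwann-like cells of C57BL/6 mouse 1 held more, at 317 and 316.5 CPM, the latter in the cells that also carried endothelial markers. Among the endothelial-like cells of cluster 0, 88 of 185 reached 50 CPM.

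Most cells rich in Actc1 also carried other transcripts of heart muscle cells. The markers Myh6, Tnni3, Myl2, Myl3 and Mb, all genes of the cardiomyocyte sarcomere or its oxygen store, were summed per cell. Of the 197 cells with Actc1 at 100 CPM or more, 158 had these 5 markers at 100 CPM or more in sum, beside 423 of all 1307 cells. Conversely, 265 of the 423 cells with such markers had Actc1 under 100 CPM. In endothelial-like cells 86 of 96 Actc1-rich cells had the markers, but so did 177 of all 252 cells of the class. The Spearman correlation of Actc1 with the markers was 0.57 over the 243 cells of C57BL/6 mouse 1, which share a plate. The endothelial-like Actc1 level of that mouse was 106 CPM in the 72 cells with less than 100 CPM of the markers, against 317 CPM in all 243. In Schwann-like cells of the same mouse it was 5.29 CPM in 4 such cells.

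In smooth muscle-like cells, the summed Actc1 level rested on few cells. In double reporter mouse 2 the 70 smooth muscle-like cells with less than 100 CPM of the markers held 122 CPM, close to the 136 CPM of all 90 cells, but the median of the 90 was 4.89 CPM, the highest cell had 7468 CPM, and 12 of the 90 cells reached 50 CPM. In mouse 1 the 81 such cells held 34.0 CPM against 90.4 CPM, and in mouse 3 the 24 such cells held 4.83 CPM against 3.90 CPM. Of the 11 cells of mouse 2 with Actc1 at 100 CPM or more, 6 had the markers. Over all mice 23 of 35 such smooth muscle-like cells had them, compared with 4 of 4 pericyte-like and 14 of 14 Schwann-like cells. Whatever their Actc1 level, 71 of 247 smooth muscle-like, 21 of 74 pericyte-like and 29 of 76 Schwann-like cells had the markers. These counts were not tested against each other. The list of cardiomyocyte markers held 8 genes, and Tnnt2, Pln and Ttn were left out of the sum. Smooth muscle-like cells held 374 to 584 CPM of Pln and 137 to 466 CPM of Tnnt2. Levels of Ttn are not given here.

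**Figure D3:**
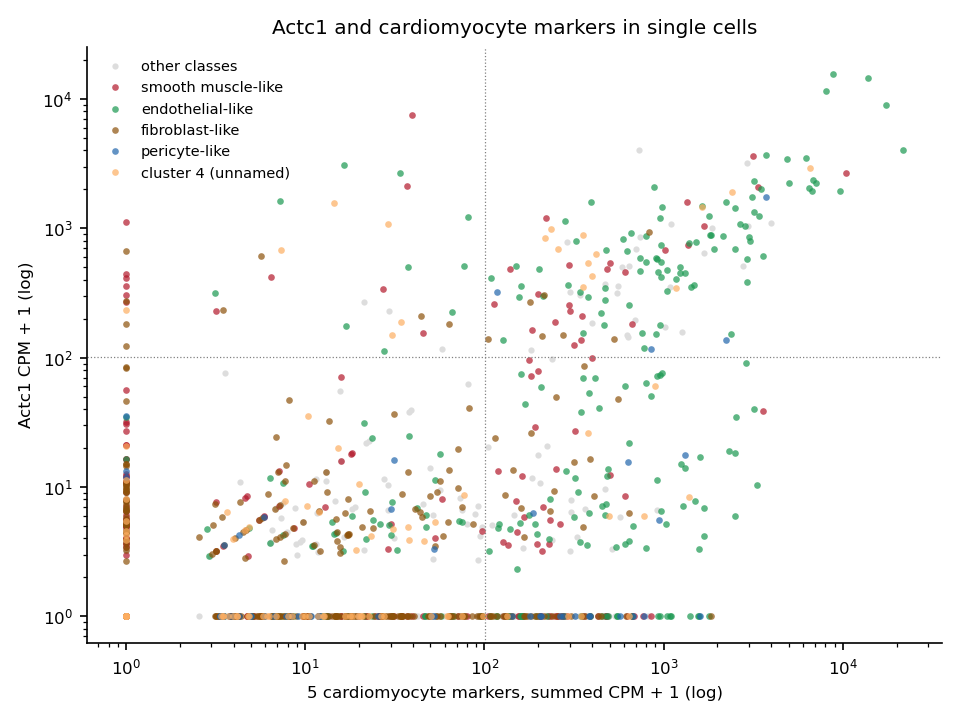
Actc1 against the summed level of the 5 cardiomyocyte markers Myh6, Tnni3, Myl2, Myl3 and Mb (CPM + 1, log axes) in each of 1307 cells, coloured by class; dotted lines mark 100 CPM. Of 197 cells above the horizontal line 158 lie to the right of the vertical line, as do 423 of all 1307 cells. Smooth muscle-like, fibroblast-like and cluster 4 cells are among those above the horizontal and left of the vertical line.

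Acta1 was the scarcest actin, with 0.294% of all actin counts. Its sums were 30.3, 52.9 and 14.3 CPM there, against 0.131 and 3.23 CPM in pericyte-like and 0.759, 1.22 and 2.28 CPM in fibroblast-like cells. The smooth muscle-like values lay above these, but the 9 pericyte-like cells of mouse 3 held 55.7 CPM, with 1 of the 9 at 505 CPM. The change was 5.88 ± 2.29 against pericyte-like (edgeR adjusted p = 0.299) and 4.54 ± 0.87 against fibroblast-like cells (edgeR adjusted p = 0.0578). By DESeq2 both passed (adjusted p = 0.00366 and 6.07e-09), and without double reporter mouse 3 the latter passed by edgeR too (5.38, adjusted p = 0.0170). The share of cells at 50 CPM or more differed by mouse: 38.9% of smooth muscle-like cells of mouse 2 reached it, against 4.76% of mouse 1 and 3.57% of mouse 3. This depends on the threshold. In cluster 2 the cells of mouse 2 that reached it had a median of 77.8 CPM. Cells with 0 counts of Acta1 made up 49.3%, 8.77% and 31.6% of cluster 2 in mice 1 to 3. In C57BL/6 mouse 1, endothelial-like cells held 45.6 CPM of Acta1, and 8.17 CPM in the cells with less than 100 CPM of cardiomyocyte markers.

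The cytoplasmic actins were detected in nearly all cells. Actb had a count in all 1307 cells and Actg1 in 1306. Actb sums were 3542, 5042 and 4522 CPM in smooth muscle-like, 2832 and 3963 CPM in pericyte-like, and 2312, 2485 and 3130 CPM in fibroblast-like cells of double reporter mice in order. Within each mouse the smooth muscle-like value was the highest of these sums, although the 9 pericyte-like cells of mouse 3 gave 4915 CPM. The rise over fibroblast-like cells was 0.76 ± 0.14 (edgeR adjusted p = 0.0554), and DESeq2 called it (adjusted p = 0.00871). Macrophage-like cells of mouse 3 held 6101 CPM, the highest Actb sum of any class with at least 10 cells of a mouse. Endocardial-like cells of C57BL/6 mouse 1 held 2058 CPM, the lowest.

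Actg1 did not differ beyond its spread between these classes. Its sums were 1181, 1353 and 1031 CPM in smooth muscle-like, 1005 and 1364 CPM in pericyte-like, and 1186, 1138 and 1362 CPM in fibroblast-like cells, so the classes overlapped. The change against fibroblast-like cells was -0.02 ± 0.16 (edgeR adjusted p = 0.977), and it was positive without double reporter mouse 3 (0.13) and with other cell definitions. The unnamed cluster 12, whose leading genes Upk3b, Msln and Lrrn4 are mesothelial, held 2125 CPM in double reporter mouse 3, the highest Actg1 sum of a class with at least 10 cells of a mouse. No test was made for it, with 1 mouse.

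Counts per kilobase of transcript allow the genes to be set side by side. In smooth muscle-like cells Acta2 held 2855 ± 441 CPM per kilobase (SD, n = 3 mice), Actb 2275 ± 397, Actg1 609 ± 82.6, Actg2 336 ± 190, Actc1 52.1 ± 45.6 and Acta1 22.5 ± 13.4. In each of the 3 mice Acta2 was above Actb, although the spreads of the means overlap. Actg1 was above Actg2 in each mouse, and Actc1 and Acta1 overlapped. Pericyte-like cells had another order, with Actb at 1770 ± 417, Actg1 at 607 ± 130 and Acta2 at 398 ± 48.2 CPM per kilobase (n = 2 mice). Fibroblast-like cells kept that order, with Actb at 1376 ± 225, Actg1 at 630 ± 60.6 and Acta2 at 226 ± 145 CPM per kilobase (n = 3 mice).

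The same shift was seen as composition. The share of each gene in the actin counts of a cell was averaged over cells. Acta2 made up 49.3%, 48.3% and 42.5% of actin counts in smooth muscle-like cells of double reporter mice 1 to 3, a mean of 46.7% ± 3.66 (SD, n = 3). Its share was 13.4% and 13.8% in pericyte-like cells, and 17.1%, 9.01% and 3.56% in fibroblast-like cells. Actb went the other way, with 34.3%, 37.3% and 46.0% in smooth muscle-like cells, 64.1% and 66.0% in pericyte-like cells and 54.6% to 68.3% in fibroblast-like cells. In smooth muscle-like cells of mouse 3 the mean share of Actb (46.0%) was thus above that of Acta2 (42.5%), unlike the order of the summed counts. Actg1 made up 10.4% ± 0.413 in smooth muscle-like and 27.9% ± 0.170 in fibroblast-like cells (SD, n = 3 mice each). Since total actin was 10540, 14020 and 11210 CPM in smooth muscle-like cells against 4324, 4000 and 4735 CPM in fibroblast-like cells, the lower Actg1 share went with a like Actg1 level and a larger total. Per base of transcript, the smooth muscle-like share was 44.8% ± 3.16 for Acta2, 39.8% ± 6.39 for Actb, 10.3% ± 0.384 for Actg1 and 4.06% ± 2.43 for Actg2. With 3 mice an exact paired permutation test cannot reach the threshold, so shares were not tested.

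**Figure D4:**
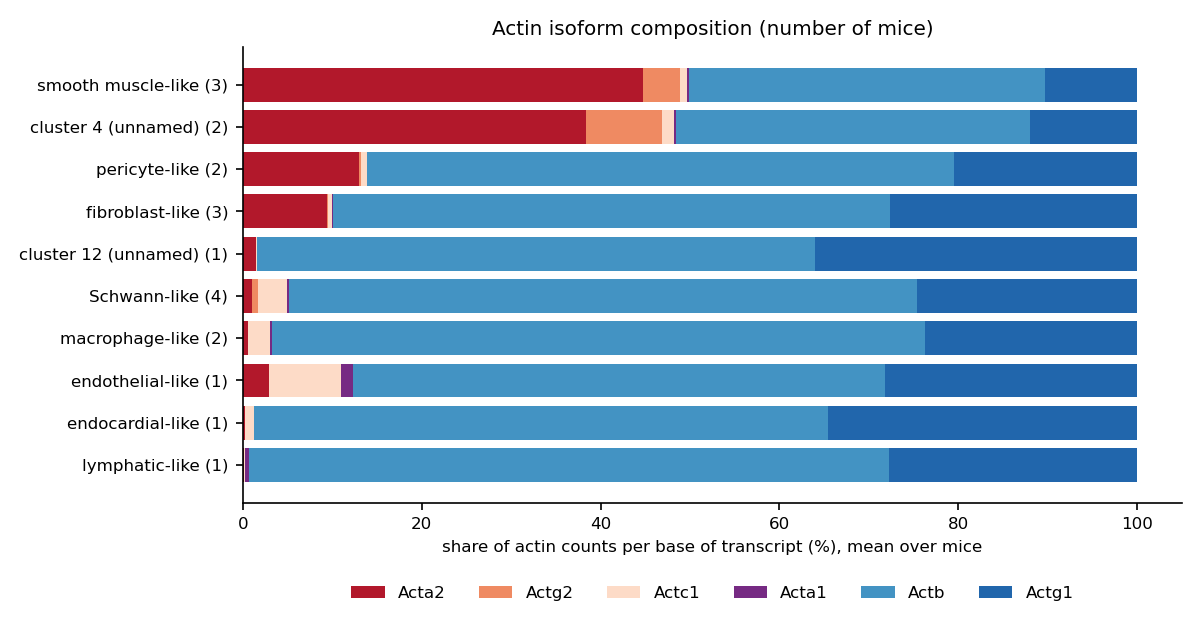
Share of each actin gene in the actin counts of a cell, divided by transcript length (percent, mean over cells, then over the number of mice in brackets), by cell class. In smooth muscle-like cells Acta2 takes 44.8%, Actg2 4.06%, Actb 39.8% and Actg1 10.3%. In pericyte-like and fibroblast-like cells Actb takes 65.55% and 62.3%, and Actg1 20.5% and 27.6%.

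Among the 259 cells with Myh11 at 1000 CPM or more, no actin gene was called between high and low Rgs5 by edgeR, and fewer of the Rgs5-high than of the Rgs5-low cells reached 50 CPM of Actg2. Cells with Rgs5 at 1000 CPM or more were called Rgs5-high and numbered 75, 47 and 19 in double reporter mice 1 to 3. Cells under 100 CPM were called Rgs5-low and numbered 55, 25 and 1, so mouse 3 could not enter the comparison. The split follows the clusters in part: cluster 2 held 106 high and 26 low cells, cluster 6 held 6 and 50, and cluster 4 held 28 and 8. Acta2 summed to 5086 CPM in Rgs5-high and 4902 CPM in Rgs5-low cells of mouse 1, and to 6993 and 8520 CPM in mouse 2. The direction differed between the mice, and the change was -0.15 ± 0.21 (edgeR adjusted p = 0.916).

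Actg2 summed to 637 CPM in Rgs5-high and 751 CPM in Rgs5-low cells of mouse 1, and to 529 and 1284 CPM in mouse 2. It was lower at high Rgs5 in both mice, and the share of cells at 50 CPM or more was 38.7% against 69.1% in mouse 1 and 36.2% against 84.0% in mouse 2. The change of -0.79 ± 0.33 missed the threshold (edgeR adjusted p = 0.538, DESeq2 adjusted p = 0.0646). C57BL/6 mouse 1 was not in this test. Its 3 Rgs5-high cells were all endothelial-like cells of cluster 10. They had 0 counts of Actg2, which allows up to 2.51 CPM at the limit of 3 counts. Its 3 Rgs5-low cells, none of them endothelial-like, summed to 717 CPM, so the groups differ in cell class as well as in Rgs5. In double reporter mouse 3 the Rgs5-high cells summed to 203.7 CPM, with a median of 0. The 1 Rgs5-low cell held 17.4 CPM, below that sum and opposite to double reporter mice 1 and 2. Within cluster 2 the contrast was wider: 15.4% of 52 Rgs5-high and 100% of 12 Rgs5-low cells of mouse 1 reached 50 CPM, and 22.2% of 36 and 100% of 12 in mouse 2. The summed levels there were 172 and 1239 CPM in mouse 1 and 317 and 1979 CPM in mouse 2, a change of -2.79 (edgeR adjusted p = 0.216). In the other clusters Actg2 was not lower at high Rgs5 in mouse 1, with 1632 CPM in 4 high and 585 CPM in 35 low cells of cluster 6, and 1560 CPM in 18 high and 844 CPM in 8 low cells of cluster 4. The restriction to cluster 2 was chosen after its values were seen, and whether clusters differ was not tested.

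Acta1 and Actg1 were also lower at high Rgs5 in both mice. Acta1 summed to 2.66 against 51.1 CPM in mouse 1 and 38.9 against 91.6 CPM in mouse 2, a change of -2.76 ± 0.94 (edgeR adjusted p = 0.428, DESeq2 adjusted p = 0.0059). The mouse 1 value rests on few cells, since its Rgs5-low median was 6.71 CPM. Actg1 summed to 1074 against 1338 CPM and 986 against 1809 CPM, a change of -0.63 ± 0.25 (edgeR adjusted p = 0.491). Actb was 3738 against 3313 CPM and 5004 against 5884 CPM, and Actc1 was 181 against 42.3 CPM and 37.7 against 386 CPM. Both ran in opposite directions in the 2 mice. The Actc1 sums rested on few cells, with medians of 0 and 0 CPM in mouse 1 and 4.13 and 11.1 CPM in mouse 2, and a highest cell of 7468 CPM among the Rgs5-low cells of mouse 2. Of the 6 genes, 0 were called by edgeR and 1 (Acta1) had an unadjusted p under 0.05. EdgeR called 0.00698% of 14332 genes, namely Rgs5 itself, and 1516 genes had an unadjusted p under 0.05. DESeq2 called 1 of the 6, Acta1, and 7.14% of all genes.

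In shares of actin counts, the Rgs5-high cells had more Actb (by 3.55 and 4.05 percentage points in mice 1 and 2) and less Actg1 (-3.35 and -2.96) and Actg2 (-1.96 and -3.76). Acta2 was higher by 0.909 and 4.37 points, a mean of 2.64. Other markers moved with Rgs5: the 7 pericyte markers summed to 3031 and 3299 CPM in Rgs5-high against 375 and 357 CPM in Rgs5-low cells. The 10 fibroblast markers summed to 1856 and 2361 CPM against 5640 and 5112 CPM. Median depth was 278200 against 366700 counts in mouse 1 and 202200 against 182900 in mouse 2. Their part in the actin differences was not tested.

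**Figure D5:**
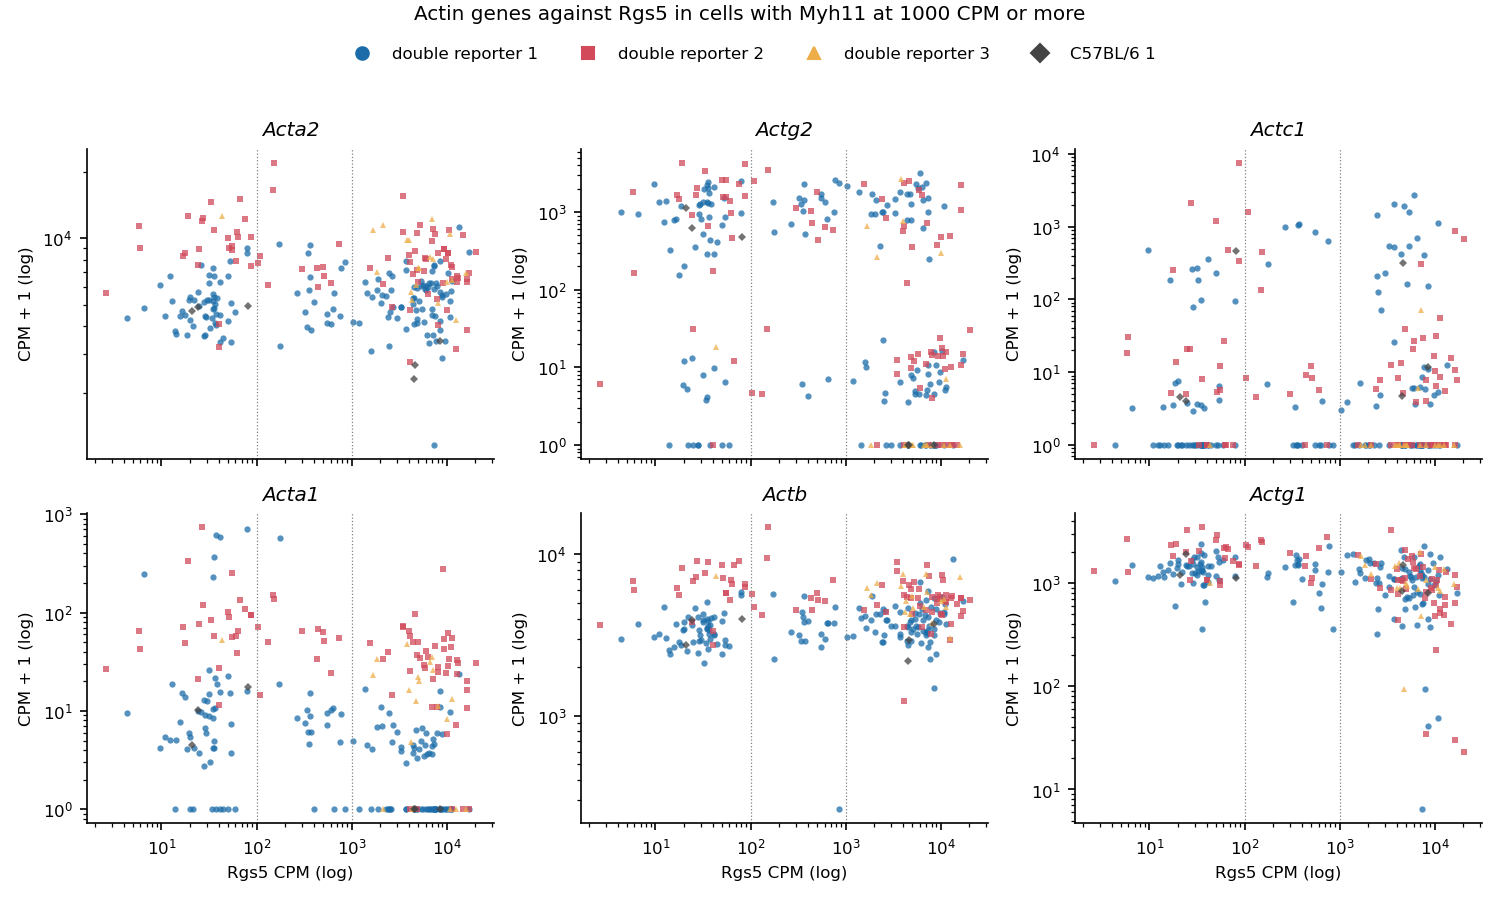
Each actin gene (CPM + 1) against Rgs5 (CPM) in single cells with Myh11 at 1000 CPM or more, log axes, coloured by mouse; dotted lines mark 100 and 1000 CPM of Rgs5. Acta2 and Actb have no cells near 0 at any Rgs5 level, whereas Actg2 has cells near 0 and near 1000 CPM, with 38.7% and 36.2% of Rgs5-high cells at 50 CPM of Actg2 in mice 1 and 2.

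Within the same Myh11-positive cells the levels of Acta2 and Actb were correlated, with Spearman values of 0.72, 0.84 and 0.80 in double reporter mice 1, 2 and 3 (149, 84 and 20 cells, each on 1 plate). Their correlations with the counts per cell were -0.67, -0.73 and -0.42 for Acta2 and -0.63, -0.59 and -0.62 for Actb, compared with -0.02, -0.16 and 0.03 for Actg1. The correlations were 0.06, -0.36 and 0.29 for Actc1, 0.16, 0.01 and -0.41 for Actg2 and 0.19, -0.05 and 0.30 for Acta1. Over all cells, the highest Acta2 count in a cell was 2246, or 1.10 per base of transcript. The highest count per base was 1.19 for Actc1, 0.923 for Actb, 0.827 for Actg2, 0.541 for Actg1 and 0.219 for Acta1. Acta2 as a share of actin counts was less tied to depth (-0.34, -0.35 and -0.02). The part of depth in the correlation of Acta2 with Actb was not tested. Actg2 correlated with Rgs5 at -0.24, -0.47 and -0.43, Acta1 at -0.44, -0.54 and -0.47 and Actg1 at -0.31, -0.66 and -0.30, values that describe these cells.

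Genes most like each actin were ranked by Pearson correlation of log2(CPM + 1) over 20 class-by-mouse sums, among 4899 genes with a mean of 50 CPM or more. Acta2 was most like Lmod1 (0.92), a leiomodin of smooth muscle that also named the class, then Kcnab1 (0.91) and Rbpms2 (0.90). Actg2 was most like Cnn1 (0.88), the calponin of contractile smooth muscle that also named the class, then Oat (0.87) and Myl9 (0.83), a regulatory myosin light chain. Actc1 was most like Esyt1 (0.75), Pnkd (0.72) and Araf (0.65), and Acta1 most like Ptp4a3 (0.79), Myl6 (0.74) and Cd93 (0.72). Actb was most like the mitochondrial ribosomal RNA mt-Rnr2 (0.80), Gm42418 (0.76) and CT010467.1 (0.76). Actg1 was most like Gm23419 (0.98), which overlaps its exons, then Washc4 (0.73) and Rhoa (0.72). The sums share plates and mice.

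Genes that act on actin were counted in the same fits, from lists of transcription cofactors, monomer binding, severing, capping, nucleation, crosslinking and folding factors. These counts stand beside 2.43% of all genes called against pericyte-like and 4.72% against fibroblast-like cells, and with lists this short, 1 call in a list is read as that gene's result only. Of SRF and its cofactors, 1 of 5 was higher in smooth muscle-like cells: Myocd, the myocardin cofactor, stood at 446 ± 136 against 3.95 ± 3.75 CPM in pericyte-like cells (SD, n = 2 mice), a rise of 6.98 ± 0.63 (edgeR adjusted p = 0.000232). It rose by 5.48 ± 0.44 over fibroblast-like cells (edgeR adjusted p = 0.00799). By edgeR, Myocd was therefore called in the same comparisons as Acta2 and Actg2, while the other 4 genes of the list were not. DESeq2 called 1 of the 5 against pericyte-like and 2 of the 5 against fibroblast-like cells. Its shares over all genes are given in the last section.

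Among severing factors, Dstn, which encodes destrin, was higher in smooth muscle-like than in pericyte-like cells by 2.72 ± 0.31 and than in fibroblast-like cells by 1.89 ± 0.15 (edgeR adjusted p = 0.00123 and 0.00799). Gsn, which encodes gelsolin, was higher than in pericyte-like cells by 1.38 ± 0.27 but lower than in fibroblast-like cells (-1.79 ± 0.18), at 1833 ± 456 against 779 ± 423 CPM (n = 2 mice) and 2586 ± 1343 against 8748 ± 2918 CPM (n = 3 mice). In all 2 of 5 tested severing factors were called higher against pericyte-like cells, and 2 of 6 higher (Dstn and Cfl2, a muscle cofilin) and 1 lower (Gsn) against fibroblast-like cells. Of 8 crosslinkers, 2 were higher than in pericyte-like cells (Flna, filamin A, by 2.03 ± 0.24, and Pls3, a plastin, by 1.67 ± 0.27), and 4 were higher than in fibroblast-like cells, led by Flna (2.72 ± 0.25) and the alpha-actinin gene Actn1 (2.53 ± 0.29).

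Against fibroblast-like cells, Cap2, a cyclase-associated protein of muscle, rose by 5.38 ± 0.26 from 8.05 ± 0.653 to 328 ± 47.5 CPM (edgeR adjusted p = 0.00426, n = 3 mice), and the thymosin Tmsb10 was lower (-1.31 ± 0.19). In that comparison Tmod2 (-2.81 ± 0.47) and Capg (-1.74 ± 0.27) were the 2 of 7 capping genes called, and Arpc1b (-0.90 ± 0.15) the 1 of 14 nucleation genes. Against pericyte-like cells, 1 of 14 nucleation genes was called, the formin Daam1 (-2.69 ± 0.59), at 34.3 ± 6.35 against 237 ± 88.5 CPM (n = 2 mice, edgeR adjusted p = 0.0409). Of 8 monomer binding and 7 capping genes 0 were called there by edgeR, with 0 and 2 at an unadjusted p under 0.05 and 0 and 1 called by DESeq2. The 8 chaperonin genes, which fold actin, had 0 calls in both smooth muscle comparisons by either tool, with 0 and 2 at an unadjusted p under 0.05. Of all genes tested, 2129 of 14824 against pericyte-like and 3204 of 16007 against fibroblast-like cells were under that unadjusted threshold.

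Between pericyte-like and fibroblast-like cells, 1 of 8 monomer binding, 1 of 14 nucleation and 2 of 5 severing genes were called, beside 5.14% of all genes, and 0 of the other lists by edgeR. In those, 1 capping and 1 crosslinking gene had an unadjusted p under 0.05, beside 2697 of 15314 genes tested, and DESeq2 called 0. Cap2 and Daam1 were higher, by 4.01 ± 0.86 and 2.76 ± 0.67, and Scin, a gelsolin relative, and Gsn were lower (-9.06 ± 2.05 and -3.44 ± 0.32). Scin stood at 0.131 against 75.6 CPM, so its fitted change depends on few counts. By Rgs5 level 0 genes of these lists were called by edgeR. There 2 of 8 monomer binding, 3 of 14 nucleation and 1 of 6 crosslinking genes had an unadjusted p under 0.05, and DESeq2 called 1 of each. Over all genes in that fit 1516 of 14332 had an unadjusted p under 0.05 and DESeq2 called 7.14%. These counts are therefore not read as a result for the lists. The list medians in the smooth muscle-like against pericyte-like comparison ran from -0.09 for capping genes to 1.57 for crosslinkers, beside 0.54 for all genes.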

How the data were processed

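The deposited values are raw read counts per gene and cell, made by the authors. The submitters' processing notes name bcl2fastq, Bowtie, Bowtie2, Subread, featureCounts and the builds GRCm38 and mm10, and they give no versions. The members and lists were chosen with earlier results of these data known. All 1307 cells passed 10000 counts and 500 genes. Clusters came from scanpy 1.11.5 and leidenalg 0.10.2 (counts scaled to 100000, 2000 variable genes, 30 components, 15 neighbours, resolution 1) with 388 genes withheld: actins, markers, listed genes, mitochondrial, ribosomal and sex-linked genes. Scrublet marked 7 doublets, which were kept, and no 2 cells had identical counts. Each GEO sample is 1 cell, so the raw counts of a class were added up within each mouse, with at least 10 cells a sum, or 4 for Rgs5 groups.

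Sums were tested with edgeR 4.0.16 (TMM, filterByExpr, quasi-likelihood) with the mouse as a block, because the classes come from the same animals, and Benjamini-Hochberg adjustment over all genes at 0.05. The correlations of same-mouse deviations were 0.356, 0.490 and 0.332 in the 3-mouse comparison and 0.098, 0.113 and 0.207 in the 2-mouse ones. DESeq2 1.42.0 was an alternative. On simulated data the edgeR step recovered 66 to 92 of 100 genes changed by 2 on the log2 scale and 99 to 100 of 100 changed by 4. The changed genes had a mean above 100 counts a sum, and all genes had the same dispersion and no mouse effect. The recovery does not describe genes with fewer counts or a larger spread. Named list genes were the called ones with the largest change, at most 2 each way. Intervals and the limit of 3 counts cover counting error only, since reads without molecular identifiers are not independent molecules. Coding starts came from GENCODE M21 transcripts.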

Additional observations from a re-analysis of the deposited data

Results flagged for a closer look

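Actc1 reached 15540 CPM in 1 of the 11 cells of the other 4 mice, which entered no comparison. The median of these 11 cells was 39.6 CPM, and 5 of them reached 50 CPM. Their 5 cardiomyocyte markers summed to at most 17460 CPM in a cell and to 100 CPM or more in 7 cells. Rows outside the 6 genes also held actin-like counts: Actg-ps1, an actin pseudogene, had 479 counts over 352 cells, with at most 5 in a cell. The part of these rows in the Actg1 and Actb values was not tested.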

How the results depend on the processing

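The percentage of tested genes that were called depended on the settings. For smooth muscle-like against pericyte-like cells it was 2.43% (360 genes), and DESeq2 gave 7.83% (1161), no filter 2.68% (632), no replicate block 0.479% (71), resolution 2 0.159% (20), marker gates 1.25% (182) and sums of at least 4 cells 1.55%. For smooth muscle-like against fibroblast-like cells it was 4.72% (755), and DESeq2 gave 17.7% (2840) and resolution 2 1.72% (275), while leaving out a mouse gave 0.434% to 5.39% (73 to 883 genes), namely 1.48% without double reporter mouse 1 and 0.434% without mouse 2. For pericyte-like against fibroblast-like cells it was 5.14% (787), and DESeq2 gave 9.48% (1452), no block 1.74% (267), resolution 2 1.25% (198) and marker gates 2.00% (308). For Rgs5 it was 0.00698% (1), and DESeq2 gave 7.14% (1024), no filter 0.235% (53), no block 0.160% (23), cells with at least 100000 counts and 2000 genes 0.0842% (12), a Myh11 gate of 500 CPM 0.0822% (12) and smooth muscle-like clusters, chosen after seeing the data, 0.184% (25). A cut at the median Rgs5 level gave 0 calls by edgeR, with 637 genes at an unadjusted p under 0.05, and DESeq2 was not run on that cut. In the 2-mouse comparisons, settings that leave 1 mouse gave values with no test. Directions reversed for changes that were not called. Actg1 against fibroblast-like cells ranged from -0.16 to 0.13 without a mouse and was 0.017 at resolution 2 and 0.027 with marker gates. Between pericyte-like and fibroblast-like cells, Actg2 was -1.21 with gates, Actc1 was 0.38 without the block, 0.21 at resolution 2 and 1.87 with gates, and Acta1 was 0.43 without the block and 2.45 at resolution 2. By Rgs5, Actc1 was 0.24 with cuts at 500 and 50 CPM and 0.63 with the median cut, and Actb was 0.015 with cuts at 500 and 50 CPM and 0.0092 in smooth muscle-like clusters. The causes were not tested. The Acta2 share of 46.7% ranged from 45.4% to 48.8% without a mouse, and its difference by Rgs5 from 0.909 to 4.37 points.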
